A study of Homo sapiens with 8 samples.

Results

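The WNT ligands, receptors and modulators were 66 protein-coding genes of the 60668 genes in the deposited tables. The list is defined by gene symbol: the numbered WNT ligands, the Frizzled receptors (FZD), the co-receptors LRP5 and LRP6, the receptors ROR1, ROR2 and RYK, the R-spondins (RSPO) with their LGR receptors, the ligases RNF43 and ZNRF3, the secreted antagonists of the DKK and SFRP families with WIF1, and, inside the cell, DVL1 to DVL3, NKD1, NKD2, AXIN1, AXIN2, APC, CTNNB1, the TCF/LEF factors and PORCN. Their RNA was compared between untreated D283-OMO cells (OMO) and D283-OMO cells given doxycycline for 72 h (OMO+DOX). With doxycycline, the R-spondin RSPO1 and the receptors FZD8, FZD4, FZD1 and ROR1 rose, RSPO1 by 24.7-fold, and WNT7A, without a count in OMO, reached 2.56 CPM (counts scaled to a common library size). RSPO2, ROR2, WNT5B and WNT2B fell by more than 2-fold, and beta-catenin (CTNNB1) rose by 2.42-fold. The secreted antagonist SFRP1 rose too, from 0.255 to 2.01 CPM. The level filter for testing was passed by WNT7A, SFRP1 and RSPO2 only through the group where they were high, so these had to differ.

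WNT proteins are secreted lipid-modified ligands that bind Frizzled receptors together with LRP5 or LRP6 (the canonical route) or with ROR1, ROR2 or RYK. In the canonical route, a complex holding AXIN and APC stops degrading beta-catenin, which enters the nucleus and acts with TCF/LEF factors on target genes. R-spondins, through LGR receptors, keep RNF43 and ZNRF3 from removing Frizzled receptors from the cell surface, while SFRP, WIF1 and DKK proteins act outside the cell to limit WNT signalling. In medulloblastoma, a childhood tumour of the cerebellum, activating CTNNB1 mutations define 1 subgroup, and Group 3, where MYC is often amplified or highly expressed, is another.

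D283 Med is a human medulloblastoma cell line. Both groups carried a lentiviral transgene, selected with hygromycin, that makes Flag-tagged OMOMYC, a dominant-negative form of MYC, when doxycycline (DOX) is present. Each group had 4 libraries of polyA+ RNA, which the study describes as independent biological replicates. None of the libraries analysed here came from DOX-treated cells without the transgene, so effects of DOX and of OMOMYC cannot be told apart.

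The 4 OMO libraries held 46592947 to 54020506 counts and the 4 OMO+DOX libraries 38390696 to 49249167. The gene whose protein was inhibited, MYC, stood at 939 ± 75.6 CPM (SD, n = 4) in OMO and 1123 ± 56.8 CPM in OMO+DOX (log2FC 0.26 ± 0.06, SE), with overlapping libraries, and the counts do not separate its reads from those of the transgene. Of the medulloblastoma markers, the summed level of 6 Group 3 markers was 1885 to 2106 CPM in OMO and 710.4 to 739.8 CPM in OMO+DOX. Without MAB21L2, the highest of them, the sums were 1004 to 1254 CPM and 189 to 207 CPM. EYS alone went the other way, at 14.3 CPM in OMO and 16.7 CPM in OMO+DOX. The summed level of 5 WNT subgroup markers was 1.22 to 2.0 CPM in OMO and 15.2 to 17.7 CPM in OMO+DOX, most of it TNC. WIF1 and DKK2 of that list are WNT pathway members themselves. SHH subgroup markers, which include SFRP1, summed to 14.9 to 16.3 CPM in OMO and 117 to 124 CPM in OMO+DOX, most of it PDLIM3, without which the sums were 1.23 to 1.79 CPM and 2.9 to 3.26 CPM. Group 4 markers summed to 7.48 to 9.43 CPM and 103 to 112 CPM, most of the latter KHDRBS2, and without it to 6.04 to 7.75 CPM and 23.2 to 26.6 CPM. All 6 leukocyte markers stayed under 1 CPM in every library. Fibroblast markers summed to 35.1 to 37.6 CPM in OMO and 55.7 to 69.1 CPM in OMO+DOX, most of it COL1A1 and PDGFRB, with the other 4 under 1 CPM. Without PDGFRB the sums were 22.3 to 23.8 CPM in OMO and 21.2 to 25.2 CPM in OMO+DOX. Endothelial markers summed to 3.58 to 4.49 CPM in OMO and 5.56 to 6.37 CPM in OMO+DOX, but moved both ways: VWF stood at 3.26 CPM in OMO and 1.24 CPM in OMO+DOX, while KDR stood at 0.348 and 2.74 CPM, and CDH5 had 0 counts in OMO and 1.85 CPM in OMO+DOX. Without VWF the sums were 0.691 to 1.03 CPM and 4.49 to 5.19 CPM. The part of these markers in the results below was not tested, and in bulk RNA fewer cells making a transcript and less of it per cell cannot be told apart.

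MYC and its partner MAX bind the E-box CACGTG, a palindrome that reads the same on both strands, and OMOMYC-containing dimers bind it too. RefSeq (GRCh38.p14) gave promoter windows of 250 bases before to 50 bases after the annotated start for 48 of the 66 members. The letters CACGTG stood in windows of 3 of these 48 members, APC, DVL2 and RSPO4, that is in 3 of their 59 windows (5.09%), and in 7.26% of 35116 windows over all genes. The letters CTTTGA, a core that TCF/LEF factors bind, searched on both strands, stood in windows of 2 members, DKK1 and PORCN (2 of 59 windows, 3.39%), and in 12.9% of all windows. The E-box letters did not occur in the windows of RSPO1, FZD1, FZD4, FZD8, ROR1, WNT7A or CTNNB1, which rose, nor in those of WNT2B, WNT5B or ROR2, which fell, and these letters are a description, not evidence of binding. The 120 bases before the start follow for APC and DVL2, the expressed members with the letters in this stretch, and for 5 of the risen members for contrast, 5′ to 3′ on the gene's own strand with CACGTG in capitals. They span chr5:112737765-112737884 (plus strand), chr17:7234518-7234637 (minus), chr1:37634893-37635012 (minus), chr7:91264313-91264432 (plus), chr11:86955396-86955515 (minus), chr3:13880072-13880191 (minus) and chr3:41199385-41199504 (plus).
APC: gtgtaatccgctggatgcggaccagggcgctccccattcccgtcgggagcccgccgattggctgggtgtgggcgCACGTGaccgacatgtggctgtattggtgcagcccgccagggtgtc
DVL2: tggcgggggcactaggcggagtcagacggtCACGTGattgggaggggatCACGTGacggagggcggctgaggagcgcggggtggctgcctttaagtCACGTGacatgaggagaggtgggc
RSPO1: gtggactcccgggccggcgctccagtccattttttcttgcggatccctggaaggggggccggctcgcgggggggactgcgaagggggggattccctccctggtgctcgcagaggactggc
FZD1: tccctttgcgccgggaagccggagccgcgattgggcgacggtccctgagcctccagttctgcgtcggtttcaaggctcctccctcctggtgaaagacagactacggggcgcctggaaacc
FZD4: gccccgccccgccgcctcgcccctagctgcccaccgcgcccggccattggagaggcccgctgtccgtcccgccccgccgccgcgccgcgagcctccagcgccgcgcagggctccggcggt
WNT7A: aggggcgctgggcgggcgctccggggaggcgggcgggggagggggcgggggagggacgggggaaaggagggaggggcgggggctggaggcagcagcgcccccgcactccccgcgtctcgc
CTNNB1: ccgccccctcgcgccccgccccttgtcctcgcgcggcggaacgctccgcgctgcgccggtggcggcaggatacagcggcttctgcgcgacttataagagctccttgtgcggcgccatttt
In DVL2 the letters begin 90, 71 and 24 bases before the start, and in APC 46 bases before it. DVL2 fell (log2FC -0.37) and APC rose (log2FC 0.34).

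Of the 66 members, 39 passed the filter for testing (a level above 1 CPM in 4 or more of the 8 libraries) and 27 did not, among them 8 with at most 3 counts in each library. At an adjusted p below 0.05 (edgeR quasi-likelihood test, Benjamini-Hochberg over 15222 genes), 18 members rose, a direction taken by 38.5% of all genes tested, and 16 fell, against 38.1% of all genes. The remaining 5 (DVL3, FZD3, FZD5, FZD6 and WNT3) did not pass. With an absolute log2 fold change (log2FC) above 1 as well, 8 members rose, where 11.0% of all genes did, and 4 fell, where 9.81% did. At the study's thresholds as given in its methods, an adjusted p below 0.001 and an absolute log2FC above 2, 6 rose (all genes: 4.38%) and 1 fell (all genes: 2.75%). The results text of the study states a looser adjusted p with the same log2FC. The CPM ranges of the groups did not overlap for 33 of the 39, compared with 71.7% of all genes. The members' median log2FC was 0.04, also with WNT7A at its lower bound, and that of all genes 0.01, and their median absolute log2FC was 0.60 against 0.43. WNT7A, SFRP1 and RSPO2 passed the filter only through the group where they were high, so they had to differ. A filter that asks for this level in 5 or more libraries leaves them out and gives 6 risen and 3 fallen members past 1 log2 unit, and 4 and 0 at the study's thresholds.

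**Figure D1:**
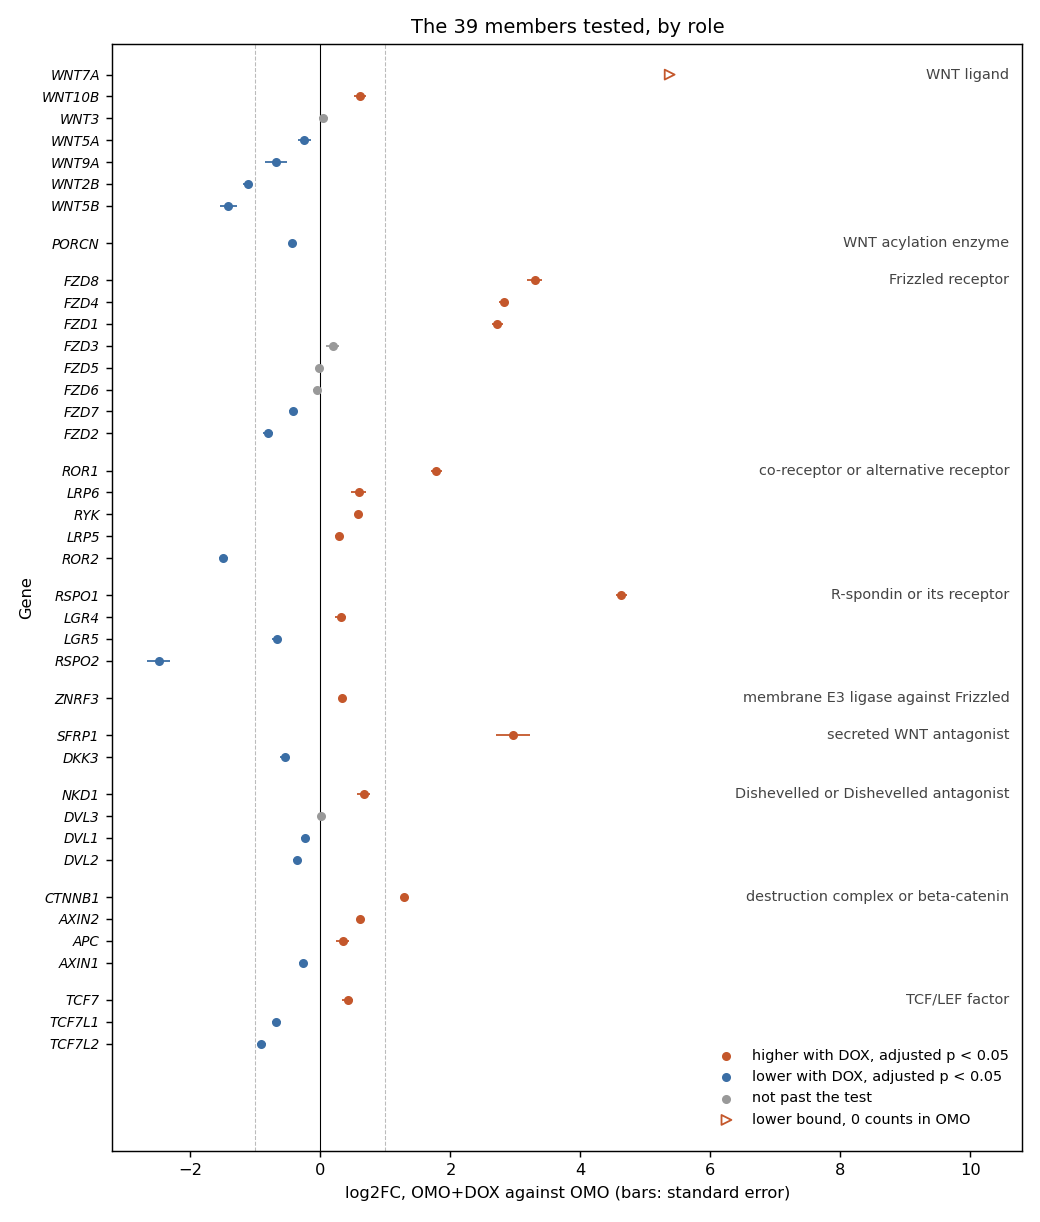
The log2FC of OMO+DOX against OMO (x axis) for each of the 39 members tested (y axis), grouped by role, with bars for the standard error and dashed lines at -1 and 1. Red points rose, blue points fell and grey points did not pass the test, and the triangle marks the lower bound for WNT7A, which had 0 counts in OMO. Among the circles, RSPO1 lies farthest to the right at 4.63 and RSPO2 farthest to the left at -2.49.

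**Figure D2:**
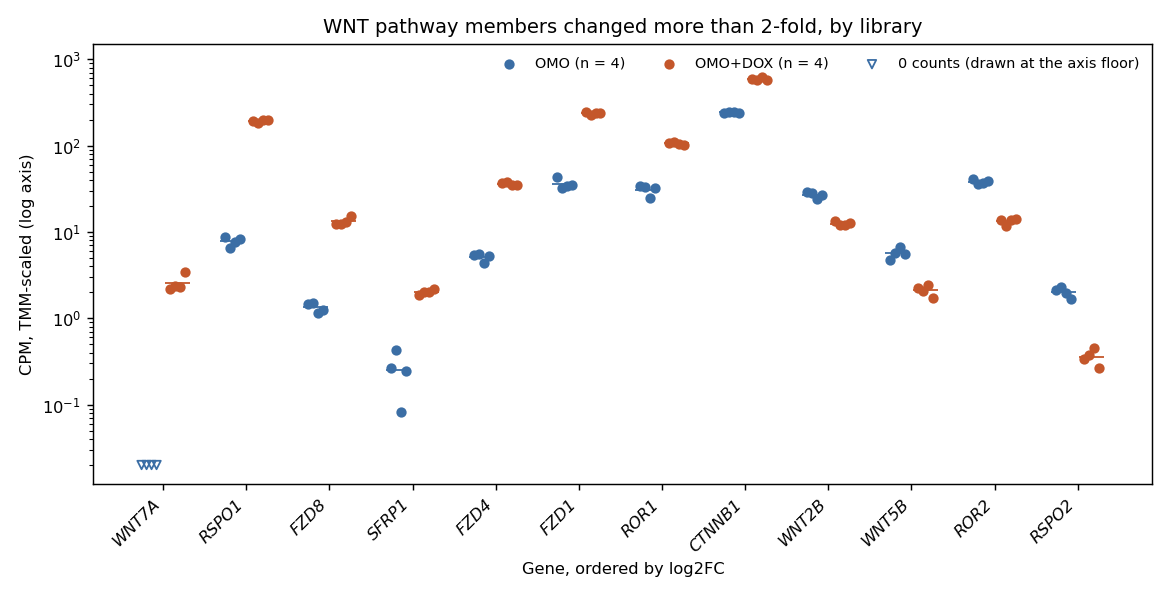
Levels in TMM-scaled CPM (y axis, log scale) of the 12 members that changed more than 2-fold, ordered by log2FC (x axis). Each point is 1 library, short lines are group means, and open triangles mark libraries with 0 counts. The OMO and OMO+DOX points of each of these genes are separate, as had to be for WNT7A, SFRP1 and RSPO2.

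Among the 19 WNT ligands, 7 were expressed above the filter: 2 rose, 4 fell and WNT3 did not pass. For this and the counts by role below, 38.5% of all genes tested rose and 38.1% fell. WNT7A (chromosome 3, minus strand, 13816258 to 13880121), a ligand with roles in neural development, had 0 counts in each OMO library. It stood at 2.17, 2.34, 2.33 and 3.41 CPM in OMO+DOX, from 94 to 155 counts, with replicate 4 the highest. Against a floor of 3 counts per OMO library, the level was at least 41.4-fold higher (edgeR adjusted p = 2.21e-07). WNT7A passed the filter only through OMO+DOX, so it had to differ. WNT10B (chromosome 12, minus strand, 48965340 to 48971763), a canonical ligand, rose from 4.99 to 7.59 CPM (log2FC 0.60 ± 0.09, SE).

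WNT5B (chromosome 12, plus strand, 1529891 to 1647243), a ligand best known for routes without beta-catenin, gave 4.77, 5.73, 6.63 and 5.54 CPM in OMO. With DOX it gave 2.25, 2.07, 2.4 and 1.72 CPM, below every OMO library. The log2FC was -1.42 ± 0.13 (edgeR adjusted p = 1.12e-06), a level 2.68-fold lower. WNT2B (chromosome 1, plus strand, 112466541 to 112530165) gave 29.2, 28.3, 24.1 and 26.4 CPM in OMO and 13.3, 11.9, 11.9 and 12.5 CPM in OMO+DOX, again without overlap. Its log2FC was -1.12 ± 0.07 (edgeR adjusted p = 3.32e-08), or -0.996 with library size only. WNT2B shares 21.2% of its exon bases with ST7L on the opposite strand, a gene at 24.7 CPM in OMO and 20.1 CPM in OMO+DOX. The strand setting of the counting is not given in the sources used here, so reads in the shared stretch may come from either gene.

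WNT9A, at 1.53 CPM in OMO and 0.953 CPM in OMO+DOX, fell by 0.69 on the log2 scale. WNT5A, the ligand most studied in planar polarity, showed only a small difference. It ranged from 7.05 to 8.61 CPM in OMO and from 6.01 to 7.41 CPM in OMO+DOX, so the groups overlapped. Its log2FC of -0.25 ± 0.10 passed with an edgeR adjusted p of 0.0367, but the call was lost without OMO replicate 2 or 4 or without OMO+DOX replicate 2, 3 or 4 (adjusted p 0.0610 to 0.0990). It was also lost with library size in place of TMM scaling (log2FC -0.12, adjusted p = 0.286).

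Summed over the 19 genes per kilobase of exon, WNT ligand RNA was 9.64 ± 0.16 CPM per kb (SD, n = 4) in OMO and 9.29 ± 0.483 CPM per kb in OMO+DOX. Its make-up, which depends on the exon lengths used, differed between the groups. WNT2B, WNT3 and WNT10B gave 22.3%, 21.9% and 19.7% of it in OMO. With DOX, WNT10B gave 31.0%, WNT3 23.5% and WNT2B 10.7%, while WNT5B went from 13.6% to 5.30% and WNT7A from 0 to 6.0%. PORCN (chromosome X, plus strand, 48508962 to 48520814), the enzyme that attaches the lipid to WNT proteins, gave 22.5, 23, 25.4 and 23.1 CPM in OMO and 17.4, 15.8, 17.9 and 18.5 CPM in OMO+DOX. It fell by 0.43 on the log2 scale (edgeR adjusted p = 4.83e-05), with no overlap.

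Of the 10 Frizzled receptors, which bind WNT ligands at the cell surface, 8 were tested: 3 rose, by 6.58-fold to 9.82-fold, 2 fell and 3 did not pass. FZD1 (chromosome 7, plus strand, 91264364 to 91271326) gave 43.3, 32, 34.3 and 34.5 CPM in OMO and 243, 228, 237 and 241 CPM in OMO+DOX. The lowest OMO+DOX library stood above the highest OMO library, and the log2FC was 2.72 ± 0.08 (edgeR adjusted p = 9.73e-11), a 6.58-fold rise. FZD4 (chromosome 11, minus strand, 86945679 to 86955391), which also serves as the receptor of Norrin in retinal vessels, gave 5.34, 5.54, 4.35 and 5.32 CPM in OMO. It gave 37.1, 37.9, 35.3 and 34.5 CPM in OMO+DOX (log2FC 2.82 ± 0.07, edgeR adjusted p = 2.25e-11), again without overlap. FZD4 shares 18.9% of its exon bases with PRSS23 on the opposite strand, itself at 0.518 CPM in OMO and 4.69 CPM in OMO+DOX.

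FZD8 (chromosome 10, minus strand, 35638249 to 35642278) had the lowest level per kilobase of exon among the 3 risen receptors, 0.333 CPM per kb in OMO and 3.3 CPM per kb in OMO+DOX. It gave 1.47, 1.52, 1.14 and 1.25 CPM in OMO and 12.4, 12.5, 13 and 15.3 CPM in OMO+DOX, a 9.82-fold rise (log2FC 3.30 ± 0.11, edgeR adjusted p = 2.12e-10). FZD2 fell from 48.3 to 27.6 CPM (log2FC -0.81 ± 0.07) and FZD7 from 36.8 to 27.3 CPM (log2FC -0.43 ± 0.06). FZD3, FZD5 and FZD6 had log2FC of 0.19, -0.02 and -0.05, with overlapping groups. FZD3 passed without OMO replicate 1 (log2FC 0.26, edgeR adjusted p = 0.0242) and with library size only (log2FC 0.31, edgeR adjusted p = 0.02). FZD6 passed without OMO replicate 3 (log2FC -0.11, edgeR adjusted p = 0.0328). FZD9 stayed under 1 CPM in every library and FZD10 had 0 counts in each.

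**Figure D3:**
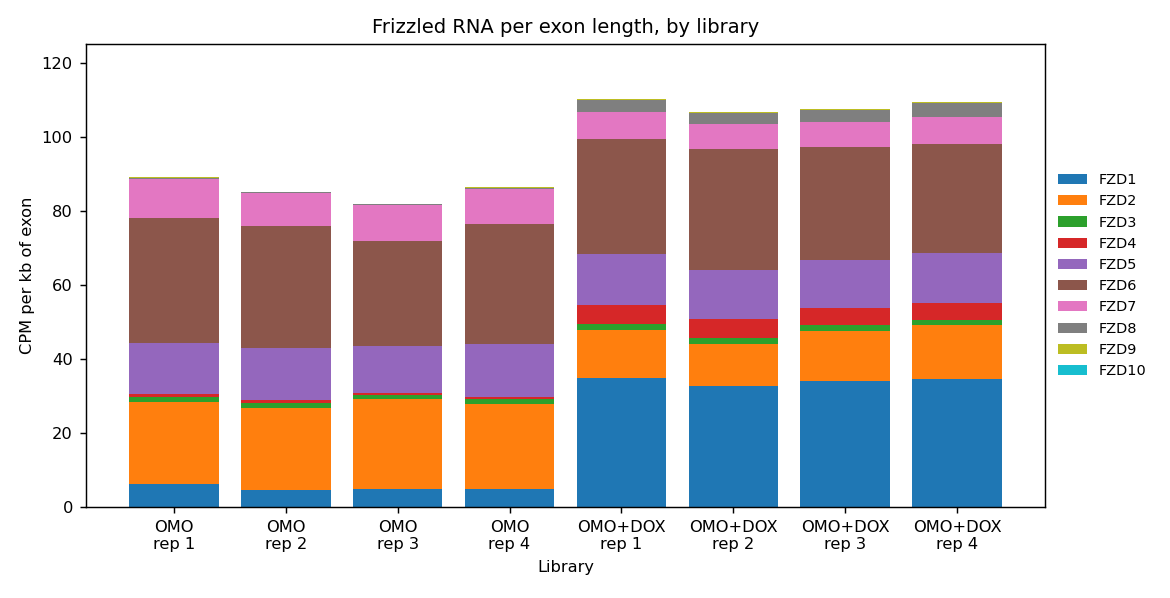
Frizzled RNA in CPM per kilobase of exon (y axis), stacked by receptor, in each of the 8 libraries (x axis). The summed height is 81.9 to 89.0 in OMO and 107 to 110.1 in OMO+DOX, and the FZD1 segment at the base grows from 5.41% to 6.99% of the total in OMO to 30.7% to 31.7% in OMO+DOX.

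Per kilobase of exon, summed Frizzled RNA was 85.6 ± 2.96 CPM per kb (SD, n = 4) in OMO and 108 ± 1.6 CPM per kb in OMO+DOX. FZD6 and FZD2 were the leading receptors in OMO, at 37.3% and 26.8% of that sum, with FZD1 at 6.04 ± 0.681%. In OMO+DOX, FZD1 led with 31.4 ± 0.469%, followed by FZD6 with 28.5%. The shares of FZD1 and FZD6 lay close together there, at 30.7% to 31.7% and 26.8% to 30.5% over the libraries. FZD5 held 15.8% in OMO and 12.3% in OMO+DOX, FZD7 11.1% and 6.52%, FZD4 0.812% and 4.52%, and FZD8 0.389% and 3.04%.

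All 5 co-receptors and alternative receptors passed the test, 4 upwards and ROR2 downwards, where 38.5% of all genes tested rose and 38.1% fell. The receptor tyrosine kinase-like proteins ROR1 and ROR2, which bind WNT5A, moved in opposite directions. ROR1 (chromosome 1, plus strand, 63774022 to 64181498) gave 33.9, 33, 24.6 and 32.1 CPM in OMO and 107, 111, 105 and 102 CPM in OMO+DOX. It rose by 3.44-fold (log2FC 1.78 ± 0.09, edgeR adjusted p = 4.87e-09), each OMO+DOX library standing above all OMO libraries. ROR2 (chromosome 9, minus strand, 91563091 to 91950162) gave 40.5, 35.5, 37 and 38.5 CPM in OMO and 13.8, 11.8, 13.9 and 14.1 CPM in OMO+DOX. It fell by 2.82-fold (log2FC -1.50 ± 0.07, edgeR adjusted p = 1.85e-09), also without overlap. Per kilobase of exon, ROR1 made up 41.3% of the ROR sum in OMO and 87.3% in OMO+DOX, while the sum itself was 11.1 and 18.1 CPM per kb.

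LRP6, a co-receptor of the canonical route, gave 79.8, 76.7, 52 and 78.6 CPM in OMO and 115, 115, 105 and 96.8 CPM in OMO+DOX. OMO replicate 3 was the low library, and the log2FC of 0.59 ± 0.12 (edgeR adjusted p = 0.000819) was 0.46 without it. LRP5, its close relative, rose less, from 38.3 to 46.4 CPM (log2FC 0.28 ± 0.06). RYK, an atypical receptor tyrosine kinase, rose from 78.3 to 117 CPM (log2FC 0.57 ± 0.04).

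By fitted log2FC, the R-spondins held the largest rise among tested members counted in both groups and the largest fall. RSPO1 (chromosome 1, minus strand, 37611350 to 37634923) gave 8.73, 6.44, 7.6 and 8.27 CPM in OMO and 191, 182, 196 and 197 CPM in OMO+DOX. The lowest OMO+DOX library stood above the highest OMO library, and the log2FC was 4.63 ± 0.08 (edgeR adjusted p = 1.32e-12). RSPO2 (chromosome 8, minus strand, 107899316 to 108083648) gave 2.14, 2.3, 1.95 and 1.66 CPM in OMO and 0.335, 0.374, 0.450 and 0.264 CPM in OMO+DOX, from 12 to 23 counts there. Its log2FC was -2.49 ± 0.18 (edgeR adjusted p = 1.24e-07), a level 5.62-fold lower with no overlap. RSPO2 passed the filter only through OMO, so it had to differ. RSPO3 was not tested, at 0.136 CPM in OMO and 0.765 CPM in OMO+DOX, and RSPO4 had at most 2 counts in a library.

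Summed R-spondin RNA was 3.05 ± 0.288 CPM per kb (SD, n = 4) in OMO and 62.3 ± 2.27 CPM per kb in OMO+DOX. RSPO1 made up 82.3% of it in OMO and 99.5% in OMO+DOX, and RSPO2 16.2% and 0.139%. Ranked among the 66 members by CPM per kb, RSPO1 was number 24 in OMO and number 1 in OMO+DOX. FZD1 went from number 18 to 3, ROR1 from 20 to 7, CTNNB1 from 5 to 2, and FZD6, number 1 in OMO, was number 4 in OMO+DOX. The length used was that of all annotated exons, 11927 bases for CTNNB1 and 3089 for RSPO1, and another length could change the ranks. The R-spondin receptors LGR4 and LGR5 moved in opposite directions. LGR4 rose from 9.57 to 11.8 CPM (log2FC 0.31 ± 0.08), and LGR5, known as a stem cell marker of the gut, fell from 35.8 to 22.5 CPM (log2FC -0.67 ± 0.07). LGR6 stayed under 1 CPM. Of the ligases that R-spondins hold in check, ZNRF3 rose from 26 to 32.7 CPM (log2FC 0.33 ± 0.05) and RNF43, which shares 57.6% of its exon bases with AC004687.2 on its own strand and 20.3% with TSPOAP1-AS1 on the other, had at most 1 count in a library.

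Of 9 secreted antagonists, only SFRP1 and DKK3 passed the filter. SFRP1 (chromosome 8, minus strand, 41261958 to 41309497), a decoy that binds WNT ligands, gave 0.265, 0.426, 0.0813 and 0.247 CPM in OMO, from 4 to 22 counts, and 1.87, 1.99, 2.01 and 2.16 CPM in OMO+DOX. The groups did not overlap and the log2FC was 2.96 ± 0.26 (edgeR adjusted p = 8.39e-07). SFRP1 passed the filter only through OMO+DOX, so it had to differ. DKK3, a divergent DKK protein, fell from 16.3 to 11.1 CPM (log2FC -0.55 ± 0.07). WIF1, a secreted WNT inhibitor, was not tested. It had 0 counts in each OMO library and 0.789, 1.22, 0.704 and 0.859 CPM in OMO+DOX, at least 14.4-fold higher against the floor of 3 counts. SFRP5 had 0.458 CPM in OMO and 0.0947 CPM in OMO+DOX, and DKK1, DKK2, DKK4, SFRP2 and SFRP4 had at most 5 counts in any library.

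Inside the cell, Dishevelled proteins relay the Frizzled signal. DVL1 fell by 0.24 on the log2 scale, from 104 to 87.9 CPM, a call lost when only library size scaled the counts (log2FC -0.11, edgeR adjusted p = 0.0794). DVL2, whose promoter letters are printed above, fell from 48.7 to 37.8 CPM (log2FC -0.37 ± 0.05, edgeR adjusted p = 3.28e-05), or by 0.24 on the log2 scale with library size only. DVL3 stood at 136 CPM in OMO and 137 CPM in OMO+DOX, with overlapping groups, and passed only with library size only (log2FC 0.14, edgeR adjusted p = 0.023). NKD1, a Dishevelled antagonist induced by WNT signals, rose from 15 to 23.8 CPM (log2FC 0.66 ± 0.10), while NKD2 was untested at 0.0463 CPM in OMO and 0.846 CPM in OMO+DOX.

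CTNNB1 (chromosome 3, plus strand, 41194741 to 41260096), which encodes beta-catenin, gave 238, 247, 248 and 236 CPM in OMO and 587, 572, 617 and 574 CPM in OMO+DOX. The groups did not overlap, and the log2FC was 1.28 ± 0.04 (edgeR adjusted p = 2.14e-10). AXIN2 (chromosome 17, minus strand, 65528563 to 65561647), a scaffold of the destruction complex and a common readout of canonical signalling, gave 19.2, 19.1, 17.9 and 19.6 CPM in OMO and 28.7, 29.4, 29.1 and 28.1 CPM in OMO+DOX. It rose by 1.52-fold with no overlap (log2FC 0.60 ± 0.05, edgeR adjusted p = 2.21e-07). It shares 25.2% of its exon bases with AC004805.1 on the same strand, which stood at 0 CPM in OMO and 0.109 CPM in OMO+DOX. Of 15 tested WNT/beta-catenin target genes outside the members, 8 rose and 6 fell, where 38.5% of all genes tested rose and 38.1% fell.

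APC (chromosome 5, plus strand, 112707498 to 112846239), the tumour suppressor of the same complex, gave 67.4, 67.9, 49.5 and 68.5 CPM in OMO and 84.1, 84.5, 77.2 and 75.1 CPM in OMO+DOX. OMO replicate 3 was again the low library, and the log2FC of 0.34 ± 0.10 (edgeR adjusted p = 0.00638) was 0.24 without it. AXIN1, the constitutive scaffold, fell from 70.8 to 58.6 CPM (log2FC -0.27 ± 0.05), or by 0.15 on the log2 scale with library size only.

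The TCF/LEF factors are the DNA-binding partners of beta-catenin. TCF7L2 (chromosome 10, plus strand, 112950250 to 113167678) gave 50.4, 45.8, 40.3 and 46.8 CPM in OMO and 25.8, 24.2, 22.7 and 24.7 CPM in OMO+DOX. It fell by 0.91 on the log2 scale (SE 0.07, edgeR adjusted p = 2.13e-07), with no overlap. TCF7L1 (chromosome 2, plus strand, 85133410 to 85310388), often a repressor of WNT targets, gave 35.7, 34.9, 40.7 and 36.6 CPM in OMO and 23.6, 20.8, 23.3 and 24.7 CPM in OMO+DOX, likewise without overlap (log2FC -0.68 ± 0.07, edgeR adjusted p = 1.75e-06). TCF7 rose from 4.17 to 5.57 CPM (log2FC 0.42 ± 0.08), and shares 2.09% of its exon bases with SKP1 on the opposite strand, which stood at 229.8 CPM in OMO and 210.4 CPM in OMO+DOX. LEF1 (chromosome 4, minus strand, 108047545 to 108168956) had 0 counts in each OMO library and 3 to 6 counts in the OMO+DOX libraries. The mean there was 1.61 times the floor of 3 counts, too close to it to bound the fold. Summed per kilobase of exon, the 4 factors stood at 15.6 ± 0.357 CPM per kb (SD, n = 4) in OMO and 9.42 ± 0.446 CPM per kb in OMO+DOX.

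The 27 untested members were all low. Without the filter on low counts, 26 of them could be fitted, all but FZD10, and 8 rose by more than 1 log2 unit at an edgeR adjusted p below 0.05: WIF1, LEF1, NKD2, WNT9B, WNT7B, RSPO3, LGR6 and FZD9. In that fit 9.95% of 36881 genes rose by this criterion. WNT10A, SFRP5 and WNT8A fell by the same criterion, as did 7.53% of the genes fitted. WNT7B, at 0.0816, 0.0774, 0.0407 and 0.179 CPM in OMO and 0.513, 0.797, 0.606 and 0.660 CPM in OMO+DOX, gave a log2FC of 2.72 ± 0.35 (SE, edgeR adjusted p = 1.09e-07 without the filter). Most of these levels lay near the floor, and WIF1, LEF1 and WNT9B had 0 counts in OMO, so their fitted log2FC depend on the prior count. WNT11 gave 0.639 CPM in OMO and 1.19 CPM in OMO+DOX, and the other untested WNT ligands, WNT1, WNT2, WNT3A, WNT4, WNT6, WNT8B and WNT16, stood at 0.305 CPM or less in every library.

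**Figure D4:**
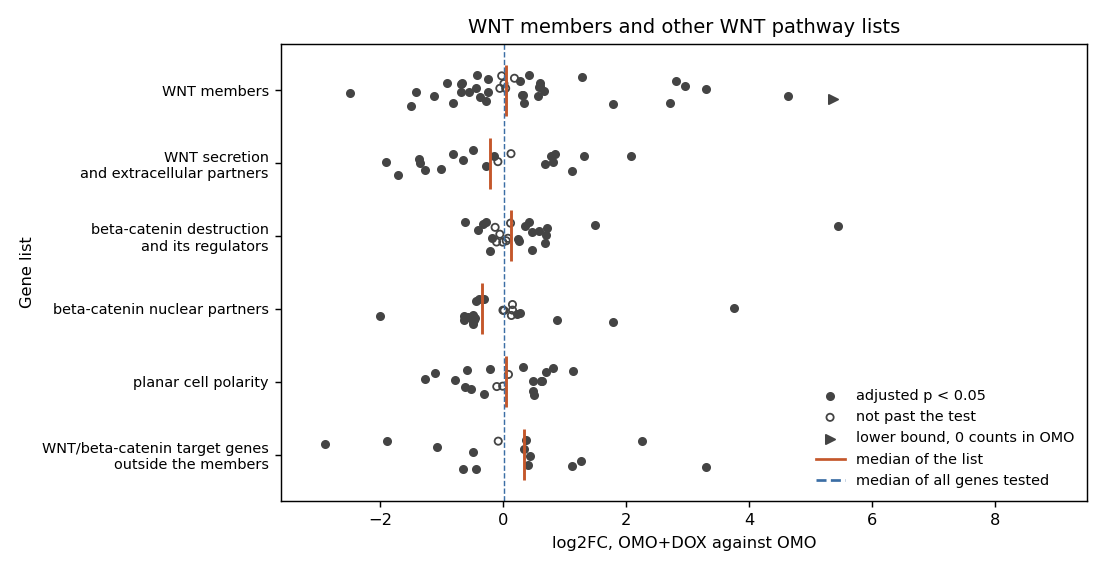
The log2FC of OMO+DOX against OMO (x axis) of each tested gene in the WNT members and in 5 other WNT pathway lists (y axis). Filled points passed an adjusted p of 0.05, open points did not, the triangle is the lower bound for WNT7A, red lines are list medians and the dashed line is the median of all genes. List medians lie between -0.35 and 0.34, with genes on both sides of 0 in each list, and DACT1, farthest right in its list, rests on 0 to 3 counts per OMO library.

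Among other genes of the pathway, secretion and extracellular partners counted 26 genes, of which 20 were tested, 7 rose and 11 fell, with a median log2FC of -0.21. TRABD2B, KREMEN2 and SHISA3, among the 11, passed the filter only through OMO, so they had to differ, and the median includes them. GPC4, a glypican that presents growth factors at the cell surface, rose from 56.8 to 240.2 CPM (log2FC 2.08 ± 0.04, edgeR adjusted p = 3.21e-12). All 25 genes of beta-catenin destruction and its regulators were tested, 12 rose and 6 fell, with a median of 0.12. DACT1, a Dishevelled-binding regulator, had 0 to 3 counts in the OMO libraries and 1.72, 1.35, 1.7 and 1.96 CPM in OMO+DOX. It passed the filter only through OMO+DOX, so it had to differ.

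All 22 nuclear partners of beta-catenin were tested, 5 rose and 12 fell, with a median of -0.35, and 9 rose with library size in place of TMM scaling. The list held TLE co-repressors that moved in opposite directions. TLE4 gave 2.18, 1.78, 1.87 and 1.9 CPM in OMO and 26.6, 26, 25.9 and 26.2 CPM in OMO+DOX (log2FC 3.76 ± 0.07, edgeR adjusted p = 1.25e-12). TLE3 gave 122, 126, 126 and 124 CPM in OMO and 31.5, 29.9, 29.3 and 33.4 CPM in OMO+DOX (log2FC -2.01 ± 0.05, edgeR adjusted p = 1.67e-11). For both genes the groups were separate.

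Of 21 planar cell polarity genes, 20 were tested, 9 rose and 8 fell, with a median of 0.04. Of 23 target genes of WNT/beta-catenin signalling outside the members, 15 were tested, 8 rose and 6 fell, with a median of 0.34. NOTUM and APCDD1 stood both in this list and among the extracellular partners, and both fell (log2FC -0.64 and -0.48). TNC, an extracellular matrix protein, rose from 1.56 to 15.3 CPM (log2FC 3.30 ± 0.14) and TNFRSF19, a receptor of the tumour necrosis factor family, from 1.05 to 5.03 CPM (log2FC 2.25 ± 0.14). SOX9, a transcription factor of neural progenitors and glia, fell from 90.6 to 12.2 CPM (log2FC -2.90 ± 0.07). The share of all genes taken by each direction was given above, and nothing particular to a list is read from these counts.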

How the data were processed

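The 8 libraries were made from polyA+ RNA with a stranded kit. Per the study's methods and the submitters' processing notes, the authors used Trim Galore for trimming, STAR for alignment to GRCh38 with GENCODE release 32 and RSEM for gene counts, in versions not given in the sources used here. The authors deposited RSEM expected counts, which are not normalized and divide reads that match several genes, so 13 members have counts that are not whole in some library. Whether counting used strand is not given in the sources used here.

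After rounding of the counts, the 15222 genes above 1 CPM (counts per 1000000) in 4 or more of 8 libraries were tested with edgeR 4.0.16 in R 4.3.3 (TMM scaling, quasi-likelihood test, no covariate, Benjamini-Hochberg adjustment over all genes tested). DESeq2 1.42.0 was an alternative, limma 3.58.1 was loaded with edgeR, and tables were made in Python 3.11.15 with numpy 2.4.6 and pandas 2.3.3. The fit was tested on simulated data. CPM are TMM-scaled, and ± beside a log2FC is its standard error. A group with at most 3 counts in each library was at the floor (0.0581 to 0.0748 CPM), which covers counting error only. Symbols, coordinates and exon lengths came from GENCODE 29 on GRCh38, which held 58561 of the 60668 gene identifiers and all 66 members, and promoters from RefSeq GRCh38.p14. Levels per kilobase divide by the bases of all annotated exons of a gene, not of the transcripts expressed. Shares and ranks between genes depend on that length.

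The members and the other gene lists were chosen with earlier results of these data known. Members past an adjusted p of 0.05 and an absolute log2FC of 1 were given in every library, as were CTNNB1, APC, AXIN2, LEF1, TCF7L1, TCF7L2 and PORCN whatever they did. From the other lists, up to 3 genes in each direction past an adjusted p of 0.001 and an absolute log2FC of 2 were named. Alternatives were other scalings, tests and filters, a replicate block and each replicate left out. The glial marker list is not reported here.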

Additional observations from a re-analysis of the deposited data

Results flagged for a closer look

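In 77 groups of 4 libraries (39 members in each group, less WNT7A in OMO), 4 had a library far from the others by Dixon's criterion, where chance marks about 1 in 20 groups, or 3.85 here. WNT7A stood at 3.41 CPM in OMO+DOX replicate 4, against 2.34 CPM in the next library. ROR2 stood at 11.8 CPM in OMO+DOX replicate 2, with 13.8 CPM as the nearest value. In OMO replicate 3, LRP6 stood at 52.0 CPM (nearest 76.7 CPM) and APC at 49.5 CPM (nearest 67.4 CPM). The mean correlation of log expression with the other libraries of its group was 0.990 for OMO replicate 3 and 0.994 to 0.995 for the other OMO libraries. All 4 genes kept their calls without the library concerned.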

How the results depend on the processing

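The counts of members that rose (18) and fell (16) at an adjusted p below 0.05 kept within 1.5 times under each alternative run. Each replicate left out in turn gave 18 to 19 risen and 15 to 17 fallen members. Past 1 log2 unit, 8 rose and 4 fell, and 3 fell with library size only, where WNT2B stood at a log2FC of -0.996. Without the filter on low counts these became 16 and 7, and at the study's thresholds 11 rose and 2 fell, since more genes were fitted. Requiring 1 CPM in more than 4 libraries, 0 members fell at the study's thresholds by edgeR's quasi-likelihood test (RSPO2 was no longer tested). Scaling by library size only moved the median log2FC of all genes from 0.01 to 0.14 and gave 21 risen and 14 fallen members, with DVL3, FZD3 and WNT3 (log2FC 0.17, edgeR adjusted p = 0.0359) among the risen. It gave 9 risen nuclear partners (5 with TMM) and 1 fallen planar cell polarity gene past 1 log2 unit (2 with TMM).

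Among the values of single members under the alternatives, 561 kept direction and call, 8 lost the call, 6 gained it and 7 changed sign. The sign changes lay in members that did not pass the test. DVL3 was at -0.0114 without the filter and between -0.0111 and 0.034 with 1 replicate left out. FZD5 was at 0.105 with library size only and between -0.064 and 0.000238 with 1 replicate left out. FZD6 was at 0.0746 with library size only, and WNT3 between -0.000808 and 0.0842 with 1 replicate left out. The cause was not tested.

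The labels do not say whether replicate numbers pair the samples. Deviations of same-numbered libraries correlated at 0.157, 0.144, 0.241 and -0.176, and not every library correlated best with its own number. Pairing was thus not seen, but so few libraries cannot exclude it. With the replicate number as a block, 19 members rose and 15 fell. FZD3 gained the call (log2FC 0.20, edgeR adjusted p = 0.0324) and WNT5A lost it (log2FC -0.24, edgeR adjusted p = 0.0578). The 27 untested members were left out by the CPM filter, and differences in the 8 with at most 3 counts in each library were not detectable at this depth.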
